A study of Caenorhabditis elegans with 2 samples.

Results

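The tRNA genes of the X chromosome were described in a ChIP-seq study of NHR-12, a nuclear hormone receptor of Caenorhabditis elegans. The members were all genes of biotype tRNA on X in the Ensembl annotation of the WBcel235 assembly (ce11), which gave 276 of the 612 nuclear tRNA genes and of 46890 nuclear genes in all. They were chosen after earlier work on these peak lists had found several strong peaks beside tRNA genes of X. The values below are therefore descriptions, and no test was made of them.

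Chromatin immunoprecipitation with sequencing (ChIP-seq) recovers DNA that lay close to a chosen protein and reports enriched intervals as peaks, each with a summit at its highest point. Whole animals of strain OP318, with the genotype unc-119(ed3) III and the insertion wgIs318, were collected as L2 larvae. Their sex was recorded as males and females pooled. The antibody label names nhr-12, and the immunoprecipitated protein was the eGFP fusion of that gene. There was 1 group with 2 biological replicates, and both had the same strain, stage and fragment sizes of 150 to 350 bp, so no condition or genotype was compared. The promoter that drives the fusion, the number of transgene copies and the state of the resident nhr-12 gene were not given in the sources used here. Whole larvae mix all tissues, and no animal without the tagged protein was analysed here.

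A tRNA carries an amino acid to the ribosome and reads codons with its anticodon. Its gene is short and is transcribed by RNA polymerase III from a promoter inside the gene, whose A box and B box bind the factor TFIIIC, and transcription ends at a run of T. The genome of C. elegans holds many identical copies of most tRNA genes, scattered between and inside other genes.

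Chromosome X held 45.1% of the nuclear tRNA genes on 17.7% of the nuclear length, or 15.6 genes per Mb against 4.07 per Mb on the autosomes. By the RefSeq annotation, the 276 genes covered 20 isotypes (amino acids), with 3 genes of undetermined isotype, and had a median length of 72 bases (64 to 120). All 276 had the same span in RefSeq. A B box, searched as GTTCNANNC on both strands inside the gene, was present in 268 of them (97.1%), against 95.2% of tRNA genes outside X and 3.57% of the first 72 bases of other genes. Its median start was base 52 of the gene. The A box pattern, TNGCNN followed at once by AGNNGG, was present in 18.1%, against 18.5% outside X and 0.616% of other genes. This pattern is strict and of fixed spacing, so a gene without a match is not shown to lack an A box. A run of 4 T followed within 40 bp of the 3′ end in 98.9%, against 98.8% outside X and 53.6% of other genes. In these letters the tRNA genes of X looked like those of the autosomes.

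The genes differed more in where they sat. On X, 180 genes (65.2%) overlapped no protein-coding gene, 95 (34.4%) lay in an intron of one, and 1 overlapped an exon. Outside X the intronic share was 56.0%. Of the 95 intronic genes on X, 50 lay on the strand of the host gene and 45 on the opposite strand. Taking genes whose 5′ ends lie within 1000 bp of the next as neighbours, the 276 genes fell into 198 groups, of which 145 were single genes. The largest group held 6 genes on X and 4 outside X. Identical copies were common, since the 276 genes had 106 distinct sequences and only 57 genes had a sequence found once in the genome. The placement of reads from identical copies was not given in the sources used here.

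Gene sequences of 4 members with strong peaks show what is repeated and what is unique in this set. They were read from the RefSeq genome of WBcel235, 5′ to 3′, with the B box in capitals. C18A11.t2 (chrX:8036685-8036757, minus strand) had the strongest peak of all members, and its 10 copies were all on X. F46G11.t1 (chrX:5801472-5801543, plus strand) is 1 of 24 copies in the genome. C04E7.t1 (chrX:353255-353336, minus strand) has 9 copies, all on X, and C04A11.t1 (chrX:13665555-13665673, plus strand) has no other copy.
C18A11.t2, tRNA-Arg: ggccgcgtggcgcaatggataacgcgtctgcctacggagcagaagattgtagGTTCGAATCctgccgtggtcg
F46G11.t1, tRNA-Pro: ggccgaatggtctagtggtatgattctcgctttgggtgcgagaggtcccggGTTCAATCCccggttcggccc
C04E7.t1, tRNA-Leu: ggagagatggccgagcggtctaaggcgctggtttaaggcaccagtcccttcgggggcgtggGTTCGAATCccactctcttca
C04A11.t1, tRNA-Leu: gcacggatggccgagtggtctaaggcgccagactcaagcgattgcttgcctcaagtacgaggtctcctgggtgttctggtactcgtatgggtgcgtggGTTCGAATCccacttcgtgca

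The deposited lists set the scale of what follows. The thresholded list held 199 nuclear peaks, of which 42 were on X. The pooled relaxed list, called on both replicates together at a lenient setting, held 29401 nuclear peaks, and the relaxed lists of replicates 1 and 2 held 29971 and 29972. Interval widths, summed over all peaks of a list, came to 0.0886% of the genome for the thresholded list. They came to 9.41%, 10.2% and 9.47% for the relaxed lists. These sums include mitochondrial peaks and count repeated intervals each time, so they are not the covered share of the nuclear genome. Signal values are those of the authors' caller and their scale differs between lists, with nuclear medians of 12.6 in the pool, 3.70 in replicate 1 and 10.7 in replicate 2. Signal was therefore compared within a list only, or as a rank among its nuclear peaks. Read depth is unknown.

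Strong peaks lay beside more tRNA genes of X than of the autosomes. A thresholded summit lay within 1000 bp of the 5′ end of 11 of 276 tRNA genes on X (3.99%), against a background of 0.700% of all nuclear genes. Outside X the count was 2 of 336 tRNA genes (0.595%), and among protein-coding genes on X it was 15 of 2731 (0.549%). Counted by peaks, 9 of the 42 thresholded summits on X (21.4%) were within this distance of a tRNA gene, against 2 of 157 on the autosomes (1.27%). For pooled relaxed summits the same shares were 3.72% on X and 0.946% on the autosomes. Since the genes were picked with this list known, these counts describe the choice and support nothing.

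Relaxed peaks were near many genes of any kind. A pooled relaxed summit lay within 1000 bp of 201 tRNA genes on X (72.8%), against 58.0% of all nuclear genes and 58.9% of tRNA genes outside X. Among the 1000 strongest nuclear peaks of the pool, the count was 47 genes on X (17.0%), against 3.70% of all nuclear genes and 6.25% of tRNA genes outside X. Over genes with a pooled summit, the strongest signal had a median of 18.2 on X (9.38 to 65.3) and 14.3 outside X, and 14.3 over all nuclear genes. In the pool, tRNA genes outside X were thus near genes in general in their share with any summit and in median signal, and between those and X at the 1000 strongest peaks.

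**Figure D1:**
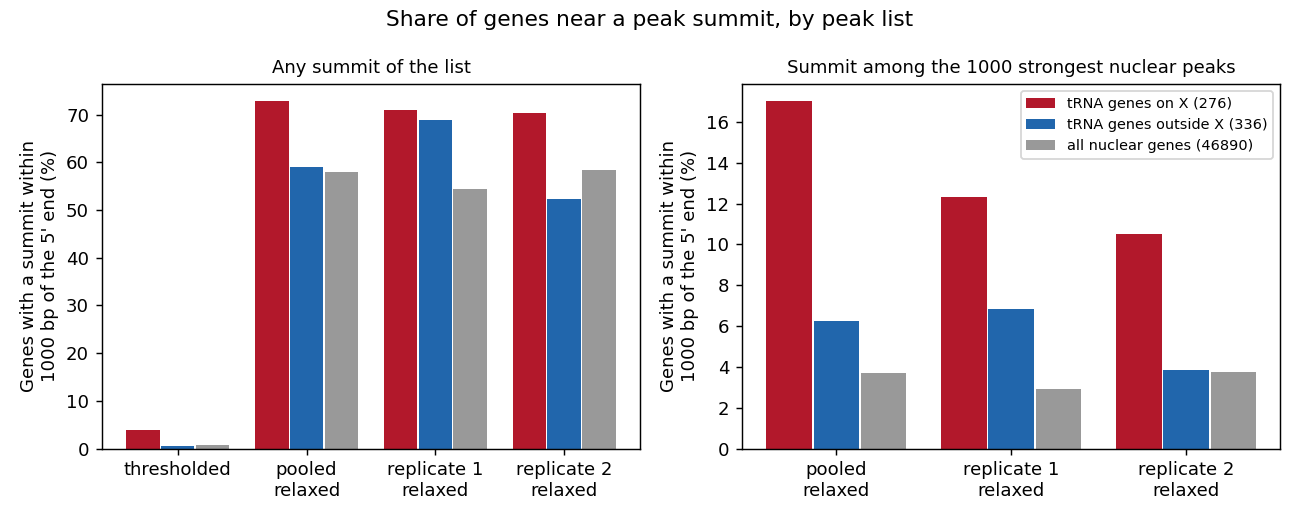
Share of genes (%) with a peak summit within 1000 bp of the 5′ end, for all summits of each list (left) and for its 1000 strongest nuclear peaks (right), in tRNA genes on X, tRNA genes outside X and all nuclear genes. Bars for X are the highest in every list, and the bar for tRNA genes outside X is close to that for X in replicate 1 (68.8% and 71.0%).

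The replicates differed in how far X stood apart. In replicate 1, 196 tRNA genes on X had a relaxed summit (71.0%), against 54.4% of all nuclear genes and 68.8% of tRNA genes outside X. In replicate 2 the count on X was 194 (70.3%), against 58.4% of all nuclear genes and 52.4% of tRNA genes outside X. The relaxed share of X was thus well above that of the other tRNA genes in replicate 2 and close to it in replicate 1. Among the 1000 strongest nuclear peaks, replicate 1 had 34 genes on X (12.3%), against 2.92% of all nuclear genes and 6.85% of tRNA genes outside X. Replicate 2 had 29 (10.5%), against 3.75% of all nuclear genes and 3.87% outside X. At this rank X was higher in both replicates. Among the strongest 199 nuclear peaks of each replicate, replicate 1 had 14 of 276 genes on X (5.07%) and 0 of 336 outside X, against 0.680% of all nuclear genes. Replicate 2 had 9 on X (3.26%) and 4 outside X (1.19%), against 0.712%.

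Summits in both replicates were found at 148 tRNA genes on X (53.6%), against 36.1% of all nuclear genes and 40.8% of tRNA genes outside X. A further 48 had one in replicate 1 alone, 46 in replicate 2 alone and 34 in neither. In the 1000 strongest peaks of both replicates there were 13 genes (4.71%), against 0.783% of all nuclear genes and 1.49% outside X. Of these 13, 9 were among the 11 with a thresholded summit. The other 4 were R04A9.t1 (Gln), C28G1.t1 (Glu), C42D8.t1 (Ile) and T26C11.t1 (Glu). Over the 148 genes, the signal values of the replicates had a Spearman correlation of 0.381, or 0.407 with 1 gene from each of 99 groups of neighbours. Outside X these values were 0.213 over 137 genes and 0.266 over 115. The points share the same libraries, and neighbouring genes often share a summit. The replicate summits of a gene lay a median of 128.5 bp apart on X and 242 bp apart outside X.

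**Figure D2:**
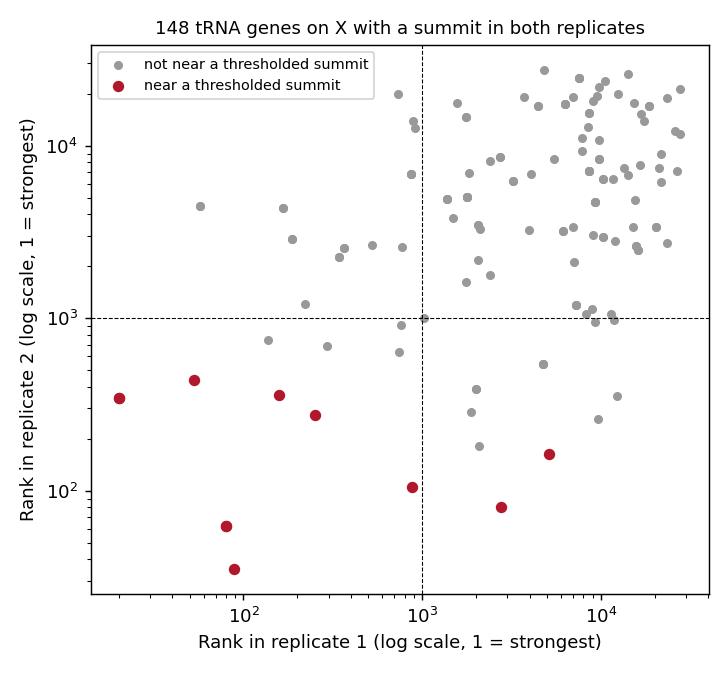
Rank of the strongest summit within 1000 bp in replicate 1 (x axis) and replicate 2 (y axis), both on log scales with 1 the strongest, for the 148 tRNA genes on X with a summit in both replicates. Dashed lines mark rank 1000, and 9 of the 11 genes near a thresholded summit (red, where neighbours share a point) lie in the lower left corner.

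The 11 genes with a thresholded summit belonged to 9 isotypes, and all 11 had a B box. The strongest was C18A11.t2, a tRNA-Arg gene, with a signal of 65.3 in the pool (rank 46), 18.5 in replicate 1 (rank 89) and 48.9 in replicate 2 (rank 35). It was high in both replicates. The summit lay 350 bp downstream of the 5′ end, however, past the end of the gene, and the nearest 5′ end was that of the ncRNA gene C18A11.13, 267 bp away. Next came F46G11.t1 and F46G11.t2, 2 tRNA-Pro genes that share 1 summit, with 52.7 in the pool (rank 74), 18.98 in replicate 1 (rank 80) and 41.5 in replicate 2 (rank 62). The replicates ranked it alike. The pair M02F4.t1 (Gly) and M02F4.t2 (Glu) also shared a summit, with 49.8 in the pool (rank 86), 26.98 in replicate 1 (rank 20) and 24.8 in replicate 2 (rank 344). Replicate 1 ranked it higher, and its summit there lay 20 bp before M02F4.t1, whereas that of replicate 2 lay 192 bp after that 5′ end.

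Both pairs are divergent, so each summit falls in the stretch between 2 tRNA genes that point away from each other. This stretch is 116 bp long at M02F4 (chrX:3036048-3036163) and 189 bp long at F46G11 (chrX:5801283-5801471). They are printed because they are the only places where 1 thresholded summit serves a pair of members, from the RefSeq genome of WBcel235, plus strand, with the 11 bases centred on the summit in capitals.
M02F4.t2 to M02F4.t1: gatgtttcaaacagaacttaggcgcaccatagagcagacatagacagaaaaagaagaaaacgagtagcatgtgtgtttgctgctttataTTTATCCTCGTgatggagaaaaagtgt
F46G11.t2 to F46G11.t1: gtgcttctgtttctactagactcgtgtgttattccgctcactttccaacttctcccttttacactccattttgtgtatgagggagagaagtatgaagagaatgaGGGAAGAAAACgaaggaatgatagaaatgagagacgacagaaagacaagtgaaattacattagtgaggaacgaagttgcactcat
The F46G11 genes are identical over 72 bases, while the M02F4 genes match at 48 of 72. The summit lay 80 bp from F46G11.t1 and 110 bp from F46G11.t2, and 22 bp from M02F4.t1 and 95 bp from M02F4.t2. GC content of the stretches was 40.2% at F46G11 and 38.8% at M02F4.

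The remaining 6 had a summit of their own. W03G11.t1, a tRNA-Lys gene, had 48.1 in the pool (rank 92), 21.2 in replicate 1 (rank 53) and 23.5 in replicate 2 (rank 437), with the pooled summit 3 bp upstream. C04A11.t1, the tRNA-Leu gene without another copy, had 41.1 in the pool (rank 140), 15.2 in replicate 1 (rank 158) and 24.6 in replicate 2 (rank 357), with the summit 20 bp inside the gene. F41D9.t3, a tRNA-Asn gene in an intron of sulp-3 on the opposite strand, had 43.0 in the pool (rank 124), 13.3 in replicate 1 (rank 250) and 25.997 in replicate 2 (rank 274). Its host belongs to the sulfate permease family of anion transporters. These 3 were within the 500 strongest peaks of each replicate.

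In the others replicate 2 ranked the peak higher. F59C12.t2, a tRNA-Asp gene in an intron of F59C12.3, had 41.1 in the pool (rank 139), 9.04 in replicate 1 (rank 881) and 33.5 in replicate 2 (rank 105). C04E7.t1, tRNA-Leu, had 44.3 in the pool (rank 115), 6.64 in replicate 1 (rank 2758) and 37.2 in replicate 2 (rank 80). R01H5.t1, tRNA-Thr, had 39.2 in the pool (rank 163), 5.57 in replicate 1 (rank 5118) and 29.6 in replicate 2 (rank 164). The last 2 were outside the 1000 strongest peaks of replicate 1. At R01H5.t1 the summit lay 104 bp after the 5′ end, and the 5′ end of the ncRNA gene R01H5.2 was nearer, at 22 bp. Of the 11 genes, 7 were the nearest 5′ end to their summit.

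The distance of 1000 bp set which genes were counted, and at 2000 bp the thresholded share was 5.43%. The farthest inside it were F46G11.t2, 110 bp from its summit, and C18A11.t2, 350 bp from its summit. The nearest outside were C18A11.t1 (Pro), 1100 bp downstream of the summit that C18A11.t2 has, then C30E1.t1 (Gly), 1522 bp from a summit of 42.5, and W02H3.t1 (Leu), 1561 bp from a summit of 79.8.

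The next 14 genes by pooled signal ran from 35.9 down to 29.1, at ranks 231 to 478. R04A9.t1 (Gln), in an intron of ZK1193.2, had 35.9 in the pool, 12.7 in replicate 1 (rank 293) and 21.7 in replicate 2 (rank 690). C28G1.t1 (Glu), the member that overlaps an exon, of C28G1.2, had 35.2 in the pool, 16.1 in replicate 1 (rank 138) and 21.4 in replicate 2 (rank 745). C42D8.t1 (Ile) had 33.6 in the pool, 9.55 in replicate 1 (rank 739) and 22.0 in replicate 2 (rank 638). In these 3 both replicates placed the summit among their 1000 strongest.

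For most of the others 1 replicate ranked its strongest nearby summit much higher. The neighbours C53C7.t1 and C53C7.t2 (both Ser) shared a summit with rank 57 in replicate 1 and 4458 in replicate 2. ZK899.t1 (Pro), another copy of the F46G11 sequence, had rank 222 in replicate 1 and 1201 in replicate 2. T28B4.t1 (Phe), in an intron of the F-box gene fbxl-4, had rank 2084 in replicate 1 and 181 in replicate 2. The same side was higher at F41D9.t1 and F41D9.t2 (both Arg, ranks 2011 and 390). It was also higher at W02H3.t1 (1866 and 286) and at K09A11.t1 (Tyr, 8250 and 1053). For the F41D9 pair the replicates had separate peaks. Their summits lay 457 bp after the 5′ end of F41D9.t1 in replicate 1 and 54 bp after it in replicate 2. C29F7.t2 (Ser) and F02D10.t3 (Leu) had no relaxed summit in replicate 1 and shared one of rank 174 in replicate 2. The lowest of the 25, the tRNA-Glu gene rte-1, was outside the 1000 strongest in each replicate, at 2097 and 3295.

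**Figure D3:**
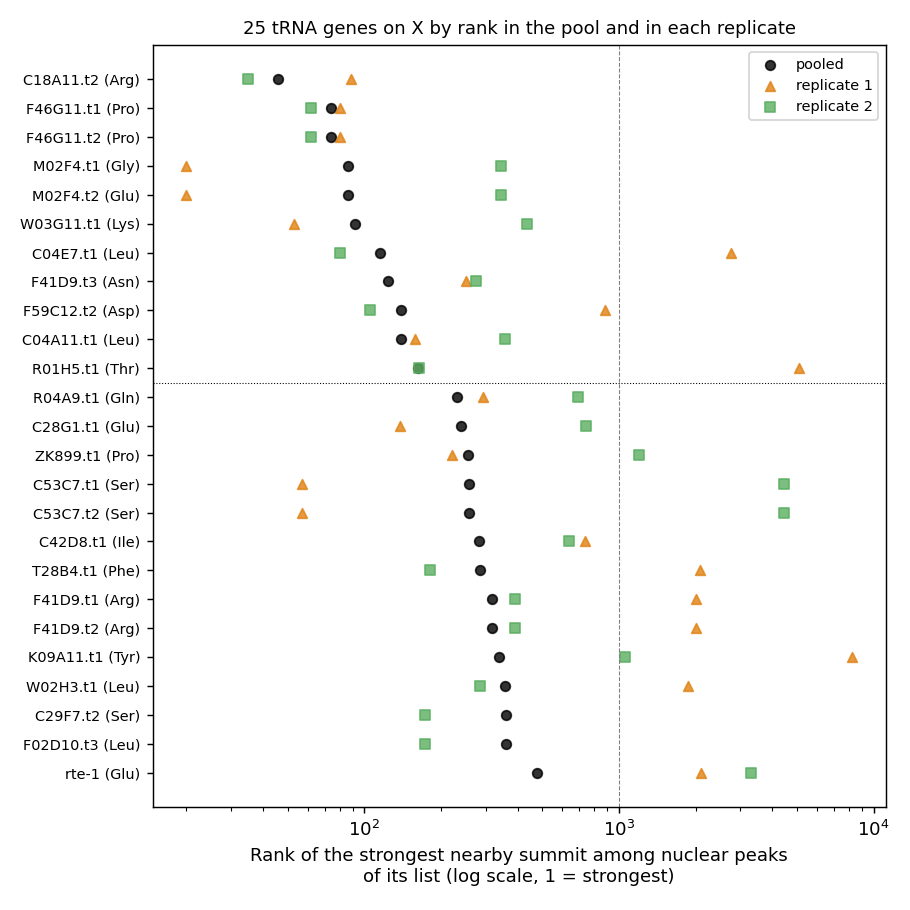
Rank (x axis, log scale, 1 the strongest) of the strongest summit within 1000 bp in the pooled list and in replicates 1 and 2, for the 11 genes near a thresholded summit (above the dotted line) and the next 14 by pooled signal. The dashed line marks rank 1000; pooled ranks run from 46 to 478, while replicate ranks reach 8250.

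Summits gathered close to the 5′ ends of the tRNA genes. Over the 201 genes of X with a pooled summit, the strongest lay a median of 25 bp downstream of the 5′ end, and its absolute distance had a median of 198 bp. For all nuclear genes the signed median was −85 bp (upstream) and the absolute one 455 bp. Tighter placement was shared by tRNA genes outside X, with 15.5 bp downstream and 207.5 bp. For the 11 genes with a thresholded summit the median absolute distance was 48 bp, and 8 of them were within 100 bp. In 3 of the 11 the summit was inside the gene and in 6 it was upstream. Over the whole set the 100 bp just upstream held the summit of 33 genes, and each of the next 100 bp bins downstream held 26 and 32, against at most 11 in any other bin.

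**Figure D4:**
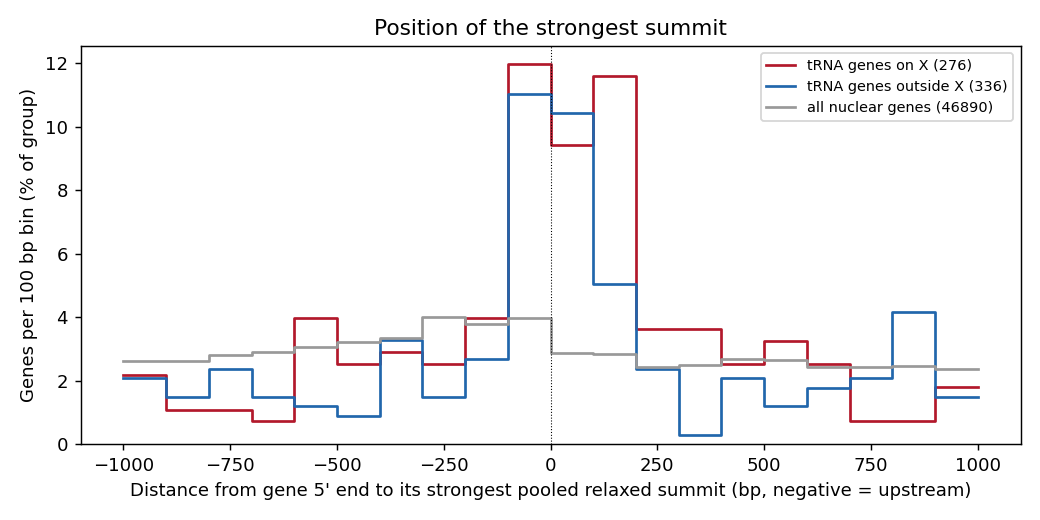
Position of the strongest pooled relaxed summit within 1000 bp, in 100 bp bins from the gene's 5′ end (x axis, bp, negative upstream), as a share of all genes of the group (y axis, %). The tRNA genes on X and outside X both peak around 0, at 11.96% of genes on X in the bin just upstream, while all nuclear genes show no peak of that height.

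Intronic and intergenic genes had similar shares with a relaxed summit. A pooled relaxed summit was near 71.6% of the 95 intronic genes on X and 73.3% of the 180 intergenic ones. Replicate 1 had 71.6% and 70.6%, and replicate 2 had 67.4% and 71.7%. Thresholded summits were near 2 intronic (2.11%) and 9 intergenic genes (5%), against 0.700% of all nuclear genes. For the 1000 strongest pooled peaks the shares were 12.6% and 18.9%, against 3.70% of all nuclear genes. Replicate 1 had 12.6% and 11.7% at this rank, and replicate 2 had 8.42% and 11.1%. Outside X the pooled shares were 59.04% for intronic and 59.7% for intergenic genes, so in the pool X was higher in both classes. In replicate 1 the shares outside X were 69.1% and 67.6%, close to those of X. In replicate 2 they were 53.2% and 51.8%, below those of X. Among intronic genes of X, the 1000 strongest pooled peaks were near 10 of 50 on the host strand and 2 of 45 on the opposite strand. Replicate 2 gave 12% and 4.44%, but replicate 1 gave 8% and 17.8%, so the order of the strands reversed between replicates.

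Genes with identical copies were more often near a summit than unique ones. The pooled share was 78.1% of the 219 repeated genes and 52.6% of the 57 unique genes, with 73.1% and 63.2% in replicate 1 and 75.3% and 50.9% in replicate 2. Of the 11 genes with a thresholded summit, 10 were repeated. The part of read placement among identical copies in this was not tested. Genes in groups of neighbours had 78.6% in the pool and in each replicate, against 67.6%, 64.1% and 62.8% for isolated genes, and a summit between neighbours counts for each of them. Of the 201 genes with a pooled summit, 98 shared their strongest one with another member, so the 201 genes had 144 distinct summits.

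Copies of the same sequence on X and elsewhere can be set side by side. There were 43 sequences with genes on both sides, 185 genes on X and 223 outside. A pooled summit was near 78.9% of these on X and 63.2% outside, and a summit of the 1000 strongest near 34 (18.4%) and 19 (8.52%). In replicate 1 the shares with any summit were 74.1% on X and 74.4% outside, and in replicate 2 they were 76.8% and 53.4%. For the 1000 strongest they were 15.1% and 8.07% in replicate 1 and 11.9% and 4.93% in replicate 2. Among copies of the same sequences, X was higher for strong peaks in both replicates, and for all relaxed peaks in replicate 2 but not in replicate 1.

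Single sequences varied. The tRNA-Pro sequence of F46G11.t1, printed above, was near one of the 1000 strongest pooled peaks in 5 of 13 copies on X and 3 of 11 outside. For the tRNA-Lys sequence of W03G11.t1 it was 3 of 10 on X and 0 of 15 outside, and for the tRNA-Asp sequence of F59C12.t2 it was 2 of 10 and 0 of 11. For the tRNA-Gly sequence of M02F4.t1 it was 1 of 11 on X and 3 of 18 outside. The sequences of M02F4.t2 (Glu), F41D9.t3 (Asn) and R01H5.t1 (Thr) had 3 of 12, 1 of 5 and 1 of 4 on X. Outside X they had 0 of 8, 0 of 13 and 0 of 5. The order of the F46G11.t1, M02F4.t1 and R01H5.t1 sequences was not the same in each replicate. At the 1000 strongest peaks, the R01H5.t1 sequence had 0% on X and 20% outside in replicate 1. In replicate 2 it had 25% and 0%. At the 1000 strongest peaks of replicate 2, the F46G11.t1 sequence had 15.4% on X and 18.2% outside, and that of M02F4.t1 had 9.09% and 5.56%. C18A11.t2 and C04E7.t1, whose copies are all on X, had 2 of 10 and 1 of 9. A strong peak at one copy was thus not shared by most copies of its sequence.

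By isotype, the genes near one of the 1000 strongest pooled peaks were spread over most amino acids. The counts were highest for Arg (6 of 27 genes on X), Lys (5 of 18), Pro (5 of 20) and Glu (5 of 23), followed by Leu (4 of 17) and Tyr (4 of 8). Val with 14 genes, His with 9 and Trp with 5 had none. Over all isotypes the share was 17.0% on X, 6.25% outside X and 3.70% of all nuclear genes. Outside X the counts were 3 of 17 for Arg, 1 of 28 for Lys, 4 of 22 for Pro and 0 of 18 for Glu. Leu had 0 of 22 there and Tyr 1 of 11. Cys, Gln, Gly and Val had higher shares outside X than on X. Of the 4 Tyr genes on X, 3 belonged to the R11 group and shared 1 summit of signal 27.4. The His genes had the lowest pooled share of the named isotypes, 3 of 9, and the 6 identical genes from F28H6.t2 to F28H6.t7 (chrX:14135045-14137010) were among those with none, with no summit in any relaxed list. The other group of 6, F22F1.t2 to F22F1.t7, with Asp, Ile, Met and Ser genes, had summits near all 6 in every relaxed list, the strongest 26.9 in the pool (rank 637). In all, 31 members had no summit in the pool or in either replicate, and 145 had one in all 3 lists.

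**Figure D5:**
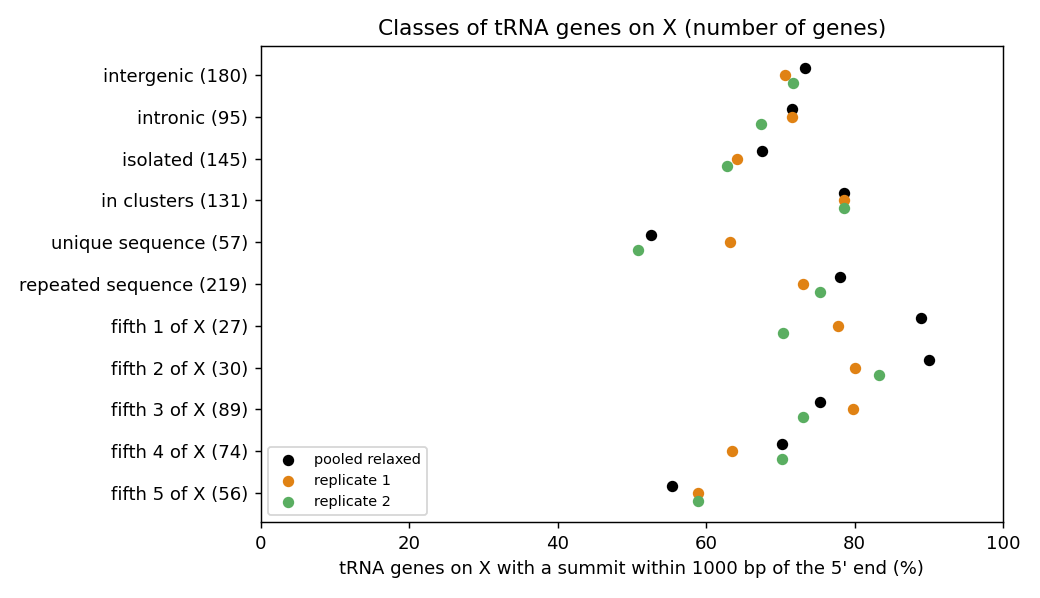
Share of tRNA genes on X (x axis, %) with a summit within 1000 bp of the 5′ end in the pooled, replicate 1 and replicate 2 relaxed lists, by class, with the number of genes in brackets. Intronic and intergenic genes lie close together, unique sequences lie below repeated ones, and segment 5 of X lies below segments 1 and 2.

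Along X, cut into 5 segments of equal length numbered from the left end, the pooled share was 88.9% of 27 genes, 90.0% of 30, 75.3% of 89, 70.3% of 74 and 55.4% of 56. In replicate 1 it was 77.8%, 80.0%, 79.8%, 63.5% and 58.9%, and in replicate 2 70.4%, 83.3%, 73.0%, 70.3% and 58.9%. The right end was lowest in all 3 lists. It was close to the shares of all nuclear genes, 58.0% in the pool, 54.4% in replicate 1 and 58.4% in replicate 2. From left to right, 3, 2, 2, 3 and 1 genes had a thresholded summit. As shares of the genes of each segment these were 11.1%, 6.67%, 2.25%, 4.05% and 1.79%, against 0.700% of all nuclear genes.

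DNA under the summits was richer in GC than relaxed summits in general. In the 50 bp on each side of the summit the median GC content was 32.7% over the 144 distinct summits at tRNA genes of X, 44.6% over the 9 thresholded ones and 37.6% over 166 at tRNA genes outside X. Over all pooled relaxed summits it was 27.7%, and over the 1000 strongest it was 35.1%. The B box pattern lay in this window at 17.4% of the 144 summits, against 2.82% of all pooled relaxed summits and 19.9% of those at tRNA genes outside X. The 144 were chosen for lying near tRNA genes, most of which hold this pattern. A share above that of all relaxed summits was thus built into the choice. GAGAGA and GACGCA were searched because earlier work on these data had named them, so their shares are descriptions and support nothing. GAGAGA, searched on both strands, was in 9.72%, against 4.91% of all and 13.3% of those at tRNA genes outside X. GACGCA was in 2.78%, against 1.74% and 1.20%. Among the 1000 strongest pooled peaks of the genome, GAGAGA was in 15.9% and GACGCA in 10%, while 5 and 1 of the 34 such summits at tRNA genes of X held them. Of the 9 thresholded summits, 2 held GAGAGA, 1 held GACGCA and 2 held a B box.

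Outside X, the tRNA genes with a thresholded summit were ZK994.t2 (Lys) and C47E8.t1 (Tyr), both intronic on chromosome V. Their pooled signals were 45.2 and 39.4, but the summits lay 926 and 878 bp upstream, farther than any of those on X. The next strongest were T03E6.t1 (Gln) on V with 37.0, F47G6.t1 (Arg) on I with 36.8 and C37A2.t1 (Cys) on I with 36.3. Their summits lay 234, 27 and 17 bp upstream. In replicates 1 and 2, F47G6.t1 had ranks 281 and 595, C37A2.t1 558 and 391, and T03E6.t1 3192 and 193. Strong peaks close to a tRNA gene were thus also found outside X.

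Lists drawn up for the protein and RNA genes that make and use tRNAs were looked up for comparison, and none of the genes matched is on X. Of 32 aminoacyl-tRNA synthetase genes, whose enzymes load amino acids on tRNAs, 0 had a thresholded summit and 12 (37.5%) a pooled one. Of these, only mars-1, the methionyl-tRNA synthetase, was near one of the 1000 strongest pooled peaks, with 29.7 at 254 bp upstream. Of 18 genes for RNA polymerase III and its factors, 0 had a thresholded summit and 9 (50%) a pooled one. Of 12 genes listed under tRNA processing, 7 (58.3%) had a pooled summit and 2 a thresholded one, against 58.0% and 0.700% of all nuclear genes. The 2 were larp-1 and rpr-1. The gene larp-1 (76.5, with the summit 669 bp upstream) encodes a La-related RNA-binding protein, whose part in tRNA processing was not examined here. The other, rpr-1 (71.2), is the RNA of RNase P, which trims the 5′ end of tRNA precursors. The pooled shares of the synthetase and polymerase lists were under the 58.0% of all nuclear genes. In replicate 1 their shares, 56.25% and 66.7%, were above the 54.4% of all nuclear genes. In replicate 2 they were 43.75% and 27.8%, against 58.4%. Protein-coding genes outside X had 44.9% in the pool, 49.4% in replicate 1 and 45.3% in replicate 2. Against these the polymerase list was higher in the pool and replicate 1, and the synthetase list in replicate 1 only. The nhr-12 gene itself, on V, had no summit within 1000 bp of its 5′ end in any list.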

How the data were processed

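Peak lists from ChIP-seq of eGFP-tagged NHR-12 in 2 biological replicates (per the labels) were used on the ce11 build. Per the notes deposited with the samples, the authors called relaxed peaks on each replicate and on the pool against a control, and thresholded pooled peaks by irreproducible discovery rate, a measure of how alike replicates rank peaks. The thresholded list used is the one labelled optimal. A place in it did not by itself mean a high rank in both replicates. Caller, aligner, settings and threshold were not given in the sources used here. Each peak's deposited signal value is the authors' own and ranks peaks within a list; the authors' deposited −log10 q-value tied at its maximum, 2.66, in 227 of 228 thresholded peaks and was not used. Lists on ce10 were not used here. No column of per-sample values was left unmapped (0).

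Genes came from Ensembl release 115 and sequences from the RefSeq genome of the same assembly. A summit was assigned to every gene whose 5′ end lay within 1000 bp, and a gene's strongest summit was kept. Mitochondrial peaks and genes were left out, except from the summed interval widths and the count of tied q-values. Host class, motifs, copies (identical over the whole gene) and groups of neighbours were computed from the annotation with python 3.11.15, numpy 2.4.6, pandas 2.3.3, scipy 1.17.1 and matplotlib 3.10.9. The assignment was tested on simulated data.

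Members and lists were chosen with earlier results of these data known. Named genes are the members with a thresholded summit, then the strongest by pooled signal up to 25, the members at the edge of the distance, tRNA genes outside X chosen likewise, pathway genes with a thresholded summit, and nhr-12. T26C11.t1, mars-1 and the F22F1, F28H6 and R11 groups were named with their values in view. As alternatives, other distances (500 and 2000 bp), the nearest gene only, distance from the gene centre, the upper 50% of peaks, 1 entry per group of neighbours and each replicate alone were tried.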

Additional observations from a re-analysis of the deposited data

How the results depend on the processing

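The thresholded share of 3.99% stayed within its exact 95% binomial (Clopper-Pearson) interval, 2.01% to 7.02%, under all alternatives run. It was 2.54% with the nearest gene only and 2.17% with the upper 50% of peaks. The interval treats genes as independent, although the 11 genes had 9 distinct summits, so staying inside this wide range does not show stability. Other values moved with the rule for assigning summits. Within 500 bp the pooled share fell from 72.8% to 62.0%, the share in both replicates from 53.6% to 40.9% and the intronic share from 71.6% to 56.8%. Within 2000 bp these were 87.3%, 73.9% and 85.3%. With the nearest gene only they were 40.9%, 22.1% and 40%, the share at the 1000 strongest peaks was 5.43% in each replicate (from 12.3% and 10.5%), the median signal was 16.4 (from 18.2) and the median distance was −23 bp (from 25 bp). With the upper 50% of peaks the pooled share was 61.6%, the share in both replicates 37.7%, the shares at strong replicate peaks 7.97% and 6.88%, and the median signal 19.5. With 1 replicate left out, the thresholded share, taken as the strongest 199 nuclear peaks of the other, was 3.26% to 5.07%, the pooled share 70.3% to 71.0%, the share with a summit in the replicate kept 70.3% to 71.0%, the intronic share 67.4% to 71.6% and the median distance 35 to 39 bp. The median signal has no such value, since scales differ between lists, and shares at strong replicate peaks already use 1 replicate. Chosen after seeing the data, the pooled share was 78.9% for sequences also found outside X and 73.3% for intergenic genes. No paired analysis was possible because there is 1 group. Depth is unknown, so no counting error can be given.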
